A study of Rattus norvegicus with 14 samples.

Results

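A set of 5 genes of the activin system was followed in cultured rat aortic smooth muscle cells: Fst, Fstl3 and Fstl1, which encode follistatin and its relatives follistatin-like 3 and follistatin-like 1, and Inhba and Inhbb, which encode the beta subunits of the activins. They were taken by symbol, and all 5 had a row among the 17312 genes measured and passed the filter on low values that kept 10133 genes for testing. They were chosen by their normalised FPKM across the treatments of these same libraries, so their values across the treatments are a description: errors and calls from the fit over all genes are listed beside them, and no inference is drawn from these. The RNA-seq libraries came from 5 groups: JQ1 plus PDGF for 2 h (3 libraries), PDGF for 2 h (3), JQ1 plus PDGF for 24 h (3), PDGF for 24 h (3) and unstimulated cells at 0 h (2). PDGF was given at 925 ng/ml per the labels, which do not name its isoform. JQ1, which displaces BET bromodomain proteins from acetylated chromatin, was given at 500 nM from 3 h before PDGF. Cells of all 5 groups were RASMC, a commercial culture of rat aortic smooth muscle, held without serum for 24 h before any treatment. JQ1 without PDGF, and unstimulated cells at 2 h or 24 h, were not analysed here, so time in culture and PDGF cannot be told apart against the 0 h libraries.

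Activins are secreted dimers of the beta subunits: 2 Inhba products form activin A, and 2 Inhbb products form activin B. They bind the type II receptors Acvr2a and Acvr2b and the type I receptor Acvr1b, and the receptors phosphorylate Smad2 and Smad3, which enter the nucleus with Smad4. Follistatin wraps around an activin dimer and blocks its receptor sites, follistatin-like 3 binds activins in a like manner, and follistatin-like 1 shares a follistatin domain but is a more distant relative. Smooth muscle cells of the artery wall are known to make both activin A and follistatin, and PDGF is a growth factor that moves these cells out of their contractile state.

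Levels are given in normalised FPKM, a level scaled to transcript length and library size, as deposited by the authors after a normalisation of unstated method. RNA from ERCC spike-ins, added in proportion to cell number per the labels, made up 1.65% to 2.78% of the FPKM in a library, and each library had 9901 to 11503 genes above 0. The depth in reads is unknown, so no counting interval is given. A second scale, the deposited unnormalised FPKM divided by a size factor per library, sets the typical gene equal in all libraries. On the normalised scale the median of all genes tested differed by 0.01 (log2) for PDGF 2 h minus 0 h, 0.41 for PDGF 24 h minus 0 h, -0.29 for JQ1 plus PDGF minus PDGF at 2 h and -0.48 at 24 h, so differences of like size follow the bulk of genes. Nothing says that the libraries of a group came from separate cultures, so errors and p-values measure the spread between these libraries, which may be technical. The sample titles carry different letters with and without JQ1, and whatever those letters mark cannot be told apart from JQ1. The comparisons share libraries: those against 0 h share the unstimulated pair, and each PDGF group enters several.

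The members differ in the DNA just upstream of their starts. RefSeq promoters on assembly GRCr8 were matched for 4 of the 5 genes, Fst being the one not matched. The 150 bases before the start are shown for Inhba and Fstl3, which held a searched motif, and for Fstl1, which held none; capitals mark a match, and each is written 5′ to 3′ on the gene's own strand.

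Inhba: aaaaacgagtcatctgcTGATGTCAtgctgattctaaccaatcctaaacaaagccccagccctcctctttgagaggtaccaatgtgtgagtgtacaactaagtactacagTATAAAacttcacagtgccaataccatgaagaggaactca
Fstl3: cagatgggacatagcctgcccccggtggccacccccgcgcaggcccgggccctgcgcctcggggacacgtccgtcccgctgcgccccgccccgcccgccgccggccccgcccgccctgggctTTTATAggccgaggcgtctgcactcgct
Fstl1: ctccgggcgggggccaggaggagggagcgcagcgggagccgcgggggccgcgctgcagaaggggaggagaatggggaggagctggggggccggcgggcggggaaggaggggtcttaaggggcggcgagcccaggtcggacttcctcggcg

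These windows lie at chr17:53804509-53804658 for Inhba, chr7:10579845-10579994 for Fstl3 and chr11:76454054-76454203 for Fstl1, all on the minus strand. Over 250 bases before the start, 7 motifs were searched on both strands: TGANTCA (the AP-1 site), TGACGTCA (the cAMP response element), its variant TGATGTCA, TATAAA (the TATA box), CACGTG (the E-box), GTCTAGAC (a Smad palindrome) and the CArG box. Inhba held the variant TGATGTCA at positions -133 to -126 from the start, as did 3.8% of the 33469 promoters in the table, and TATAAA at -40 to -35, as did 12.9%. Fstl3 held the TATA letters on its other strand, at -28 to -23. No searched motif lay in the window of Fstl1 or Inhbb; the AP-1 letters occurred in 6.34% of all promoters, the cAMP response element in 1.59%, the E-box in 5.59%, the CArG box in 1.5% and the Smad palindrome in 0.173%. Over the 250 bases, G and C made up 43.6% for Inhba, 68.8% for Fstl3, 70% for Fstl1 and 86.8% for Inhbb, against a median of 51.2% over all promoters. In the 150 bases shown, G and C made up 42% for Inhba, 78.7% for Fstl3 and 77.3% for Fstl1. The 4 promoters thus did not share a searched motif other than the TATA letters of Inhba and Fstl3, and a match here describes letters, not a factor's binding.

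Among the members, Fst had the largest differences at 2 h, with PDGF and with JQ1. Fst stood at 289, 286 and 440 FPKM in the PDGF 2 h libraries, against 6.50 and 3.37 FPKM in unstimulated cells. The groups were far apart, with means of 338 ± 88.3 FPKM (SD, n = 3) and 4.93 ± 2.22 FPKM (SD, n = 2). The log2 difference was 5.86 ± 0.28 (SE), the seventh highest of the 10133 genes tested. After 24 h of PDGF, Fst stood at 19.2, 26.1 and 29.5 FPKM, all below every 2 h library and all above the unstimulated pair. Its log2 difference was -3.70 ± 0.25 for PDGF 24 h minus PDGF 2 h, and 2.16 ± 0.28 for PDGF 24 h minus 0 h.

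With JQ1, Fst at 2 h was an order of magnitude lower. The JQ1 plus PDGF 2 h libraries held 33.6, 33.2 and 33.7 FPKM, against 289, 286 and 440 FPKM in the PDGF 2 h libraries. The means differed 10.1-fold, and the log2 difference of -3.27 ± 0.25 was the ninth lowest of all genes tested, or -2.94 on the median-centred scale. Of the PDGF increment over 0 h, 8.59%, 8.47% and 8.62% was present in the 3 JQ1 libraries (10.9% to 11.9% on the median-centred scale). Fst was still higher than at 0 h, by 2.59 ± 0.28 (log2), in JQ1 plus PDGF at 2 h. At 24 h, JQ1 plus PDGF libraries had 12.7, 6.20 and 10.1 FPKM, against 19.2, 26.1 and 29.5 FPKM with PDGF alone. These groups did not overlap, but the difference of -1.31 ± 0.25 (-0.81 on the median-centred scale) was smaller than at 2 h. Ordered by mean, Fst was lowest at 0 h, then in JQ1 plus PDGF 24 h, PDGF 24 h, JQ1 plus PDGF 2 h and PDGF 2 h. Among neighbours in that order, 0 h and JQ1 plus PDGF 24 h overlapped, and the others did not.

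Fstl3, the other close antagonist of activins, moved over a narrower range. It stood at 54.6, 74.2 and 104.9 FPKM in the PDGF 2 h libraries, against 43.9 and 44.3 FPKM at 0 h. All 3 PDGF libraries were higher than the unstimulated pair, but they spread widely, and the log2 difference was 0.76 ± 0.26. After 24 h of PDGF, Fstl3 had 33.7, 22.4 and 19.0 FPKM, below both the 2 h libraries and the 0 h pair. The difference was -1.59 ± 0.24 for PDGF 24 h minus PDGF 2 h and -0.83 ± 0.26 for PDGF 24 h minus 0 h.

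With JQ1, Fstl3 was lower at both times. The JQ1 plus PDGF libraries held 25.9, 40.0 and 39.7 FPKM at 2 h, against 54.6, 74.2 and 104.9 FPKM with PDGF alone. At 24 h they held 9.12, 7.47 and 7.35 FPKM, against 33.7, 22.4 and 19.0 FPKM with PDGF alone. Neither pair of groups overlapped, and the log2 differences were -1.10 ± 0.24 at 2 h and -1.50 ± 0.24 at 24 h. On the median-centred scale they were -0.78 and -1.01. Fstl3 in JQ1 plus PDGF 24 h was also lower than at 0 h, by -2.33 ± 0.26. By mean, the order was JQ1 plus PDGF 24 h, PDGF 24 h, JQ1 plus PDGF 2 h, 0 h and PDGF 2 h, and only PDGF 24 h and JQ1 plus PDGF 2 h overlapped among neighbours.

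Fstl1, a secreted glycoprotein of the same domain family, was the most abundant member in each of the 14 libraries, and at 2 h it had the smallest difference of the 5, with PDGF and with JQ1, on both scales. Its mean level per length lay above 98.3% of the genes tested or more in every group. It stood at 967, 1010 and 1420 FPKM in PDGF 2 h libraries, against 1007 and 1289 FPKM at 0 h, so these groups overlapped (log2 difference -0.03 ± 0.18). After 24 h of PDGF it stood at 750.4, 749 and 853 FPKM, below every library of 0 h and of PDGF 2 h. The JQ1 plus PDGF libraries held 1162, 1429 and 1360 FPKM at 2 h, against 967, 1010 and 1420 FPKM with PDGF alone.

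For Fstl1 the size of the JQ1 difference depended on the scale. In unnormalised FPKM at 2 h, JQ1 plus PDGF libraries had 1520, 1747 and 1656, against 1018, 1078 and 1168 with PDGF alone. The groups overlapped on the normalised scale (log2 difference 0.23 ± 0.16) and did not on the unnormalised one (0.59 after median centring). At 24 h, the JQ1 plus PDGF libraries held 565, 441 and 491 normalised FPKM, against 750.4, 749 and 853 with PDGF alone, a log2 difference of -0.65 ± 0.16. After median centring that difference was -0.15 and not called. The groups still did not overlap on that scale, at 511 to 520 with JQ1 plus PDGF and 546 to 613 with PDGF alone. By mean, Fstl1 ran from JQ1 plus PDGF 24 h and PDGF 24 h up to PDGF 2 h, 0 h and JQ1 plus PDGF 2 h, and the last 3 groups overlapped.

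Inhba, the activin A subunit, was the second member with a large difference after PDGF. It stood at 194, 329 and 354 FPKM in PDGF 2 h libraries, against 39.4 and 45.9 FPKM at 0 h. The groups lay well apart, the means being 292 ± 85.9 FPKM (SD, n = 3) and 42.6 ± 4.62 FPKM (SD, n = 2). The log2 difference was 2.71 ± 0.23, at place 123 from the top among all genes tested. At 24 h of PDGF it had 86.0, 96.7 and 114.6 FPKM, lower than each 2 h library by a log2 difference of -1.51 ± 0.20 between the groups and higher than each unstimulated library by 1.19 ± 0.23.

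At 2 h, the Inhba difference with JQ1 was smaller than that of Fst, while at 24 h the means were 2.32-fold lower for Inhba and 2.58-fold lower for Fst. At 2 h Inhba had 96.4, 136 and 127 FPKM in JQ1 plus PDGF libraries, against 194, 329 and 354 FPKM with PDGF alone (log2 difference -1.25 ± 0.20). At 24 h it had 46.6, 34.9 and 46.5 FPKM, against 86.0, 96.7 and 114.6 FPKM with PDGF alone (-1.20 ± 0.20). The groups did not overlap at either time, and the differences were -0.91 and -0.69 after median centring. Of the 2 h PDGF increment over 0 h, 21.5%, 37.4% and 33.6% was present in the JQ1 libraries (33.9% to 50.9% on the median-centred scale). Of the smaller 24 h increment, 6.99%, -13.8% and 6.93% was present for Inhba, and 38.7%, 6.32% and 25.6% for Fst. At 24 h the shares of the genes thus overlapped, and those of Fst were mostly the higher. After median centring these shares were 51.2%, 16.6% and 47.2% for Fst and 0.806%, -9.13% and 27% for Inhba. In JQ1 plus PDGF 24 h libraries the mean of 42.7 FPKM lay beside the 42.6 FPKM of unstimulated cells (-0.01 ± 0.23), and the ranges overlapped. Ordered by mean, 0 h and JQ1 plus PDGF 24 h were lowest, PDGF 24 h and JQ1 plus PDGF 2 h followed and overlapped each other, and PDGF 2 h stood alone at the top.

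Inhbb, the activin B subunit, was measured near the filter on low values. It stood at 1.92, 5.22 and 1.52 FPKM in PDGF 2 h libraries, against 1.61 and 1.27 FPKM at 0 h, and the ranges overlapped. The high library was lower before normalisation, at 3.02 unnormalised FPKM. At 24 h of PDGF it stood at 5.18, 3.61 and 2.66 FPKM, above the 0 h pair. The JQ1 plus PDGF libraries held 0.133, 0.822 and 0.689 FPKM at 2 h, against 1.92, 5.22 and 1.52 FPKM with PDGF alone. At 24 h they held 0.427, 0.202 and 0.215 FPKM, against 5.18, 3.61 and 2.66 FPKM with PDGF alone. Inhbb was therefore below every PDGF library with JQ1 at both times, with log2 differences of -1.24 ± 0.33 and -1.88 ± 0.33 on a scale with a pseudocount of 1, which understates changes at such levels. By mean it ran from JQ1 plus PDGF 24 h over JQ1 plus PDGF 2 h, 0 h and PDGF 2 h to PDGF 24 h, and the only neighbours that did not overlap were JQ1 plus PDGF 2 h and 0 h.

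**Figure D1:**
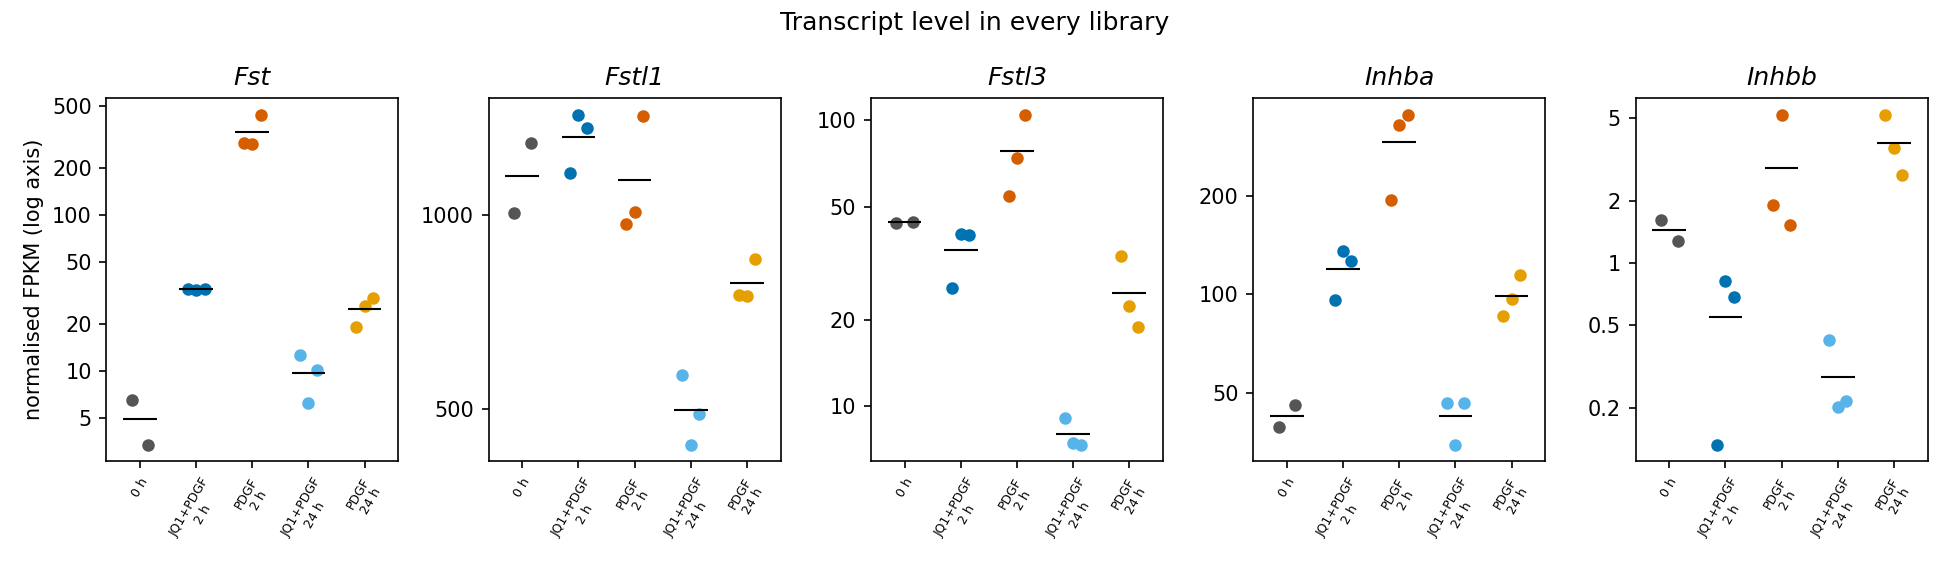
Normalised FPKM (log axis, own range for each gene) of the 5 genes in every library (points) with the mean of each group (lines), over unstimulated cells and PDGF with and without JQ1 at 2 h and 24 h. Fst at 2 h lies near 33 FPKM in all 3 JQ1 libraries and at 286 to 440 FPKM in the libraries without JQ1.

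**Figure D2:**
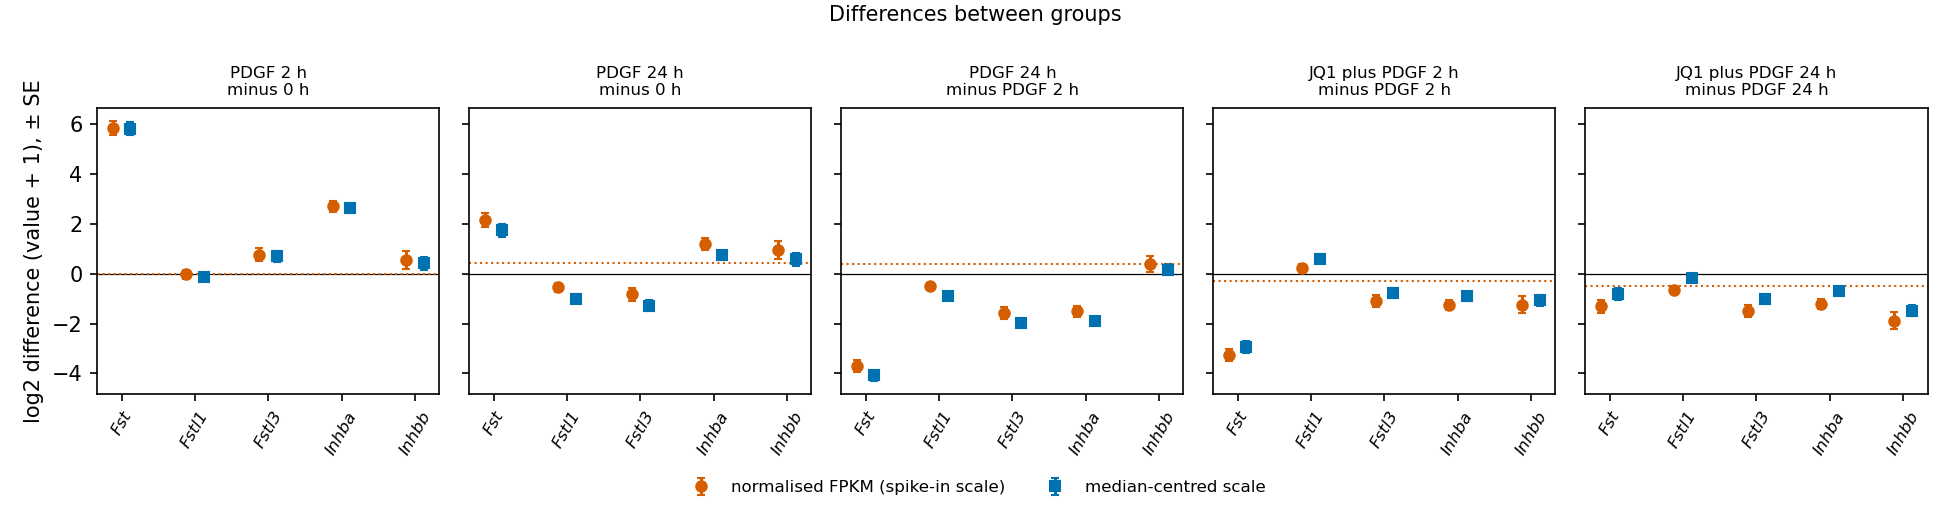
Log2 difference with its SE (bars) of the 5 genes in 5 comparisons, on the normalised FPKM scale (circles) and after median centring (squares), the dotted line being the median of all genes tested on the first scale. The legend calls the first scale a spike-in scale, but the method of that normalisation is not stated. Fst has the largest differences at 2 h, 5.86 with PDGF and -3.27 with JQ1.

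A gene was called when its limma adjusted p, over all genes tested, was under 0.05. For PDGF 2 h minus 0 h, 30.4% of all genes were called, 17.7% being higher, and Fst, Fstl3 and Inhba were called higher. For PDGF 24 h minus 0 h, 42.6% were called, 37.7% higher and 4.85% lower, with Fst, Inhba and Inhbb higher and Fstl1 and Fstl3 lower. Between the PDGF times, 56.3% were called, 11.8% being lower at 24 h, and 4 of the 5 members were lower at 24 h, Inhbb being not called. With JQ1 at 2 h, 41.3% were called, 34% of all genes being lower, and 4 members were lower, Fstl1 being not called. With JQ1 at 24 h, 53.1% were called, 48.5% being lower, and all 5 members were lower. Against 0 h, JQ1 plus PDGF at 2 h went with calls of 46.9% of genes, Fst and Inhba being higher, and at 24 h with 41%, Fst being higher and Fstl1 and Fstl3 lower. After median centring, 28.2% of genes were called for PDGF 24 h minus 0 h, 41.5% with JQ1 at 2 h (21.5% lower) and 48.9% with JQ1 at 24 h (25.8% lower). Since the members were chosen for this pattern, nothing is read from their counts beside these shares.

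Several member calls rested on single libraries or lay near the threshold. That of Fstl3 for PDGF 2 h minus 0 h (limma adjusted p = 0.0412) held in 14 of 22 alternatives. It was lost even without JQ1 plus PDGF 24 h replicate 1 or 2, which are not in that comparison. Fstl3 for PDGF 2 h minus 0 h, called at 0.76, was not called at 0.52 without PDGF 2 h replicate 2, at 0.77 without PDGF 2 h replicate 1, or at 0.75 and 0.76 without either unstimulated library. For PDGF 24 h minus 0 h, Fstl1 was not called at -0.36 without unstimulated replicate 1 or at -0.51 without PDGF 24 h replicate 0 or 1. Fstl3 in that comparison was not called without either unstimulated library (-0.84 and -0.83) or without PDGF 24 h replicate 1 (-0.78) or 2 (-0.66). Inhbb there ran from 0.44 to 1.30 over the alternatives and was not called in most. Fstl1 for PDGF 24 h minus PDGF 2 h was not called at -0.34 without PDGF 2 h replicate 2. Fst for JQ1 plus PDGF 24 h minus 0 h, called at 0.85, was not called at 0.46 without unstimulated replicate 1, or at 0.64 and 0.79 without JQ1 plus PDGF 24 h replicate 0 or 2.

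The JQ1 difference of Fst was smaller at 24 h than at 2 h, by 1.96 ± 0.35 (log2), the difference of the differences in the same fit, in which 22.3% of genes were called. For Fstl1 it was -0.89 ± 0.22, the JQ1 difference being -0.65 at 24 h and 0.23 at 2 h. For Fstl3, Inhba and Inhbb the same quantity was -0.40 ± 0.33, 0.05 ± 0.29 and -0.64 ± 0.46.

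Because both antagonist and ligand transcripts were higher after PDGF, their ratio within each library was taken. Fst over Inhba was 1.49, 0.869 and 1.24 in PDGF 2 h libraries, against 0.165 and 0.0734 in unstimulated ones. In JQ1 plus PDGF 2 h libraries it was 0.348, 0.244 and 0.266. At 24 h it was 0.272, 0.178 and 0.216 with JQ1 plus PDGF, against 0.223, 0.27 and 0.257 with PDGF alone, so the groups overlapped. The follistatin transcript thus approached or exceeded that of the activin A subunit per length in the PDGF 2 h libraries, and was the smaller in each of the other 11.

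With Fstl3 and Inhbb added, the PDGF 2 h libraries stood less apart from 0 h. The sum of Fst and Fstl3 over the sum of Inhba and Inhbb was 1.75, 1.08 and 1.53 in PDGF 2 h libraries, against 1.23 and 1.01 at 0 h, and these overlapped. It was 0.616, 0.535 and 0.576 in JQ1 plus PDGF 2 h libraries, below all of both. At 24 h it was 0.464, 0.39 and 0.372 with JQ1 plus PDGF, against 0.579, 0.483 and 0.413 with PDGF alone, again overlapping. Which antagonist led also differed: Fstl3 over Fst was 0.189, 0.26 and 0.238 in PDGF 2 h libraries, against 6.76 and 13.1 in unstimulated cells. A ratio of transcripts shows unequal levels per length and says nothing of the proteins.

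**Figure D3:**
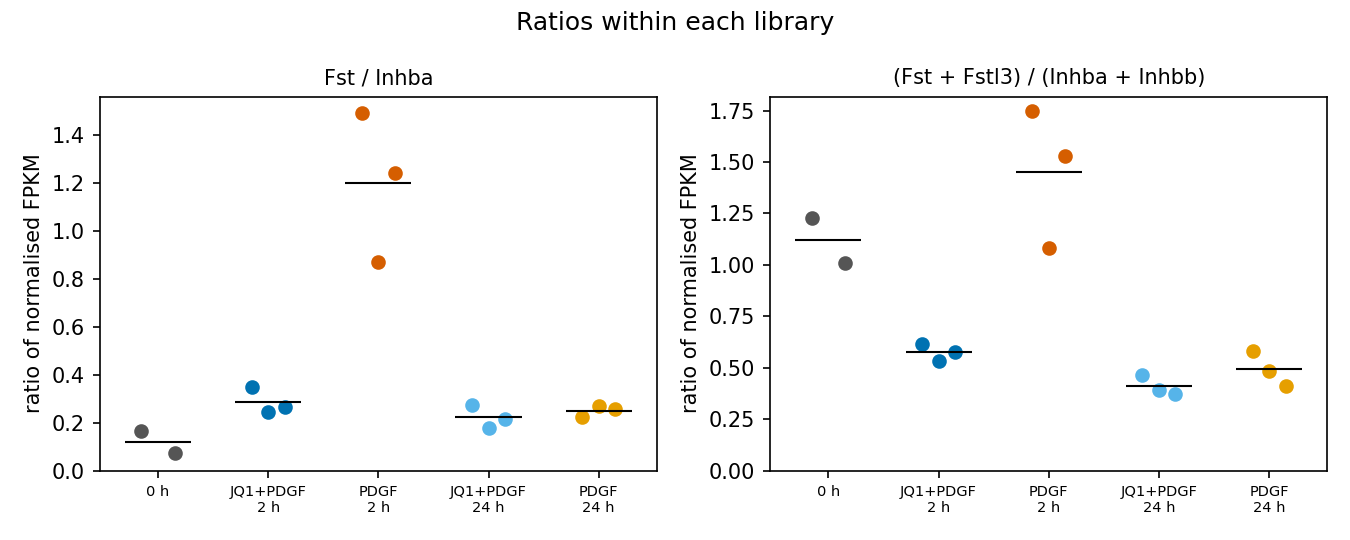
Ratio of normalised FPKM within each library (points) and group mean (lines), for Fst over Inhba and for Fst plus Fstl3 over Inhba plus Inhbb. Fst over Inhba is 0.869 to 1.49 in PDGF 2 h libraries and at most 0.348 elsewhere.

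Over the 14 libraries, the genes whose levels ran most like Fst were Pqlc1 (Pearson r = 0.98), Cttnbp2nl (0.98) and Lrrc8c (0.97), the last encoding a subunit of volume-regulated anion channels. For Inhba they were Stard13, Tnc, the matrix protein tenascin C, and again Lrrc8c, each with r of 0.98. Inhba itself stood at place 19 for Fst (r = 0.95). Fstl1 ran most like the actin-linked genes Flna (0.98), Fhl1 (0.98) and Myl12a (0.98), Fstl3 most like Scube3 (0.98), Slco3a1 (0.97) and Il1r1 (0.97), and Inhbb most like Ankrd44, Xdh and Cuedc1. These libraries share groups and a normalisation, so the correlations describe likeness across 5 treatments.

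The rest of the pathway was read from 8 lists of 84 genes, of which 79 had a row and 60 were tested. Among these 60, PDGF at 2 h went with 18 higher and 9 lower calls against 0 h (45% called, against 30.4% of all genes tested). PDGF at 24 h went with 20 higher and 9 lower (48.3%, against 42.6%). With JQ1, 11 were higher and 20 lower at 2 h (51.7%, against 41.3%), and 6 higher and 37 lower at 24 h (71.7%, against 53.1%). Their median log2 difference was 0.19 for PDGF at 2 h (0.01 over all genes tested), 0.27 at 24 h (0.41), -0.26 for JQ1 at 2 h (-0.29) and -0.68 at 24 h (-0.48). Median centring turned 2 of these splits, to 13 higher and 16 lower for PDGF at 24 h and to 22 higher and 13 lower for JQ1 at 2 h. For JQ1 at 24 h it left 15 higher and 23 lower, and for PDGF at 2 h 18 higher and 13 lower. Beside the list counts that follow stand the shares of all genes tested called lower with JQ1, 34% at 2 h and 48.5% at 24 h. After median centring, 41.5% were called at 2 h, 21.5% being lower, and 48.9% at 24 h, 25.8% being lower. With PDGF at 2 h, 17.7% of all genes tested were called higher. The lists were chosen with earlier results of these data known, so no enrichment is read from their counts. Without unstimulated replicate 1, the lower calls for PDGF at 2 h numbered 5.

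Of the other subunits, Inha, whose product pairs with a beta subunit to make inhibins, fell with PDGF at 2 h. It averaged 0.923 FPKM in PDGF 2 h libraries, against 5.39 FPKM at 0 h (log2 difference -1.72 ± 0.34, limma adjusted p = 0.0013). At 24 h it averaged 4.69 FPKM, and 2.26 FPKM in JQ1 plus PDGF. That JQ1 difference of -0.87 passed at 24 h (adjusted p = 0.0248), but was -0.37 and not called after median centring. Inhbc and Inhbe, the further beta subunits, and Mstn, the follistatin-bound ligand myostatin, averaged 0.0960 to 0.104 FPKM in these groups, the level that an unnormalised 0 takes, and were not tested.

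Of 12 activin, BMP and TGF-beta receptors and coreceptors tested, 0 rose and 1 fell with PDGF at 2 h, 1 rose and 2 fell with JQ1 at 2 h, and 0 rose and 7 fell with JQ1 at 24 h, where their median log2 difference was -0.77 (all genes tested, -0.48). After median centring, the JQ1 counts were 3 higher and 1 lower at 2 h and 1 higher and 5 lower at 24 h, with a median of -0.28. Acvr2a averaged 8.02 FPKM in JQ1 plus PDGF 2 h libraries, against 4.34 FPKM with PDGF alone (0.76 ± 0.21, adjusted p = 0.00866). Acvr2b and Acvr1b were not called with PDGF or with JQ1 at either time, and averaged 1.26 and 3.17 FPKM in PDGF 2 h libraries. Their wide errors, 0.43 and 0.31 for the JQ1 differences, do not show that these receptors were level. The largest JQ1 difference among the called receptors was that of Eng, the coreceptor endoglin, at -1.44 ± 0.15 at 2 h (adjusted p = 4.64e-06) and -2.56 ± 0.15 at 24 h (adjusted p = 2.38e-09).

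Of 11 Smads and Smad regulators tested, 4 rose and 2 fell with PDGF at 2 h, 1 rose and 5 fell with JQ1 at 2 h, and 0 rose and 8 fell with JQ1 at 24 h (median -0.64). Median centring gave 3 higher and 3 lower with JQ1 at 2 h and 2 higher and 3 lower at 24 h (median -0.13). The signal carriers Smad2, Smad3 and Smad4 were not called with PDGF at 2 h or with JQ1 at 2 h. With JQ1 at 24 h, Smad2 fell by 0.88 on the log2 scale (adjusted p = 1.97e-05) and Smad4 by 0.33 (adjusted p = 0.0478), and Smad4 was not called after median centring. Smad3 did not fall there, averaging 19.6 FPKM in JQ1 plus PDGF 24 h libraries, against 18.7 FPKM with PDGF alone. In unnormalised FPKM, Smad3 had 19.3 to 22.0 with JQ1 plus PDGF at 24 h, against 13.4 to 14.7 with PDGF alone. Smad6, an inhibitor of receptor signalling, was near the filter in the PDGF 2 h libraries, at 0.947, 0.618 and 1.13 FPKM, against 11.7 and 18.0 FPKM at 0 h (-3.04 ± 0.28, adjusted p = 7.18e-07). With JQ1 it had 5.63, 8.43 and 11.5 FPKM at 2 h (2.29 ± 0.25 against PDGF alone, adjusted p = 6.06e-06). Smad7, the inhibitory Smad of activin and TGF-beta receptors, rose by 1.33 with PDGF at 2 h (adjusted p = 1.4e-05), and Tgif1, a corepressor of Smad2 and Smad3, rose by 1.86 with PDGF (adjusted p = 1.98e-06) and fell by 2.02 with JQ1 at 2 h (adjusted p = 5.59e-07).

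Several other antagonists of this ligand family were called with PDGF and with JQ1. Of 7 tested, 4 rose and 1 fell with PDGF at 2 h, 2 rose and 3 fell with JQ1 at 2 h, and 0 rose and 5 fell with JQ1 at 24 h (median -1.48). Median centring gave 3 higher and 3 lower with JQ1 at 2 h and 2 higher and 4 lower at 24 h (median -0.97). Grem1, encoding the BMP antagonist gremlin 1, had 131, 148 and 165 FPKM in PDGF 2 h libraries, against 49.1 and 51.2 FPKM at 0 h (1.53 ± 0.13, adjusted p = 3.53e-07). In JQ1 plus PDGF 2 h libraries it had 17.3, 17.4 and 18.2 FPKM, below the unstimulated pair (-2.99 ± 0.12 against PDGF alone, adjusted p = 8.02e-10). Bmper, a further BMP-binding protein, differed by -2.63 at 2 h (adjusted p = 6.77e-08), and Ltbp1, which holds latent TGF-beta in the matrix, by -1.93 (adjusted p = 3.25e-08). Bambi, a decoy receptor, went the other way, at -1.23 with PDGF (adjusted p = 7.22e-05) and 1.55 with JQ1 (adjusted p = 3.11e-06).

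Among the other proteins with a follistatin domain, 8 were tested, and 1 rose and 2 fell with JQ1 at 2 h, against 0 and 5 at 24 h (median -0.91). Median centring turned the 2 h split to 4 higher and 0 lower of 7 tested, and gave 0 higher and 4 lower at 24 h (median -0.81). Smoc2, a matricellular protein, had 1.76, 2.10 and 1.19 FPKM in JQ1 plus PDGF 24 h libraries, against 47.0, 36.9 and 38.7 FPKM with PDGF alone (-3.97 ± 0.19, adjusted p = 1.52e-10). Sparc, the founding member of this matrix family, differed by -1.70 at 24 h (adjusted p = 3.94e-07). Of 4 proprotein convertases tested, which cut activin precursors, 1 rose and 1 fell with JQ1 at 2 h, and 1 rose and 2 fell at 24 h (median -0.57). Median centring gave 1 higher and 1 lower at 2 h and 2 higher and 2 lower at 24 h. Furin rose by 0.84 with PDGF at 2 h (adjusted p = 0.00145) and fell by 1.14 with JQ1 at 2 h (adjusted p = 3e-05) and by 1.38 at 24 h (adjusted p = 1.6e-06). Pcsk7 averaged 24.8 FPKM in JQ1 plus PDGF 2 h libraries, against 16.3 FPKM with PDGF alone. Pcsk5 averaged 5.57 FPKM in JQ1 plus PDGF 24 h libraries, against 3.22 FPKM with PDGF alone.

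Related ligands split. Of 7 tested, 1 rose and 5 fell with JQ1 at 2 h, and 2 rose and 3 fell at 24 h (median 0.20). Median centring gave 1 higher and 3 lower at 2 h, and turned the 24 h split to 4 higher and 2 lower (median 0.70). Tgfb3 differed by -1.71 at 2 h (adjusted p = 6.77e-08) and -2.64 at 24 h (adjusted p = 9.4e-11). Gdf11, a ligand that follistatin also binds, rose with JQ1 by 0.98 at 2 h (adjusted p = 5.39e-05) and 0.96 at 24 h (adjusted p = 2.82e-05). At 24 h it stood at 68.5, 58.5 and 58.6 FPKM in JQ1 plus PDGF libraries, against 35.5, 27.4 and 31.5 FPKM with PDGF alone.

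Known targets of activin and TGF-beta signalling did not run one way. Of 10 tested, 4 rose and 2 fell with JQ1 at 2 h, and 3 rose and 6 fell at 24 h (median -0.55). Median centring gave 7 higher and 2 lower at 2 h, and turned the 24 h split to 4 higher and 3 lower (median -0.04). Id2 and Id1, which are targets of BMP signalling as well, were higher with JQ1 at 2 h, by 2.45 ± 0.47 (adjusted p = 0.000753) and 1.87 ± 0.38 (adjusted p = 0.00127). Their PDGF 2 h libraries were uneven, at 0.219 to 4.83 FPKM for Id2, reaching below the filter, and 3.26 to 17.88 FPKM for Id1. In JQ1 plus PDGF 2 h libraries Id2 had 13 to 18.34 FPKM and Id1 31.45 to 40.52 FPKM. Id3 of the same family fell, with 270.4 to 310.6 FPKM in JQ1 plus PDGF 2 h libraries, against 499.6 to 579.4 FPKM with PDGF alone (-0.86 ± 0.11, adjusted p = 2.23e-05). These genes answer to many signals, and activin signalling itself was not measured.

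**Figure D4:**
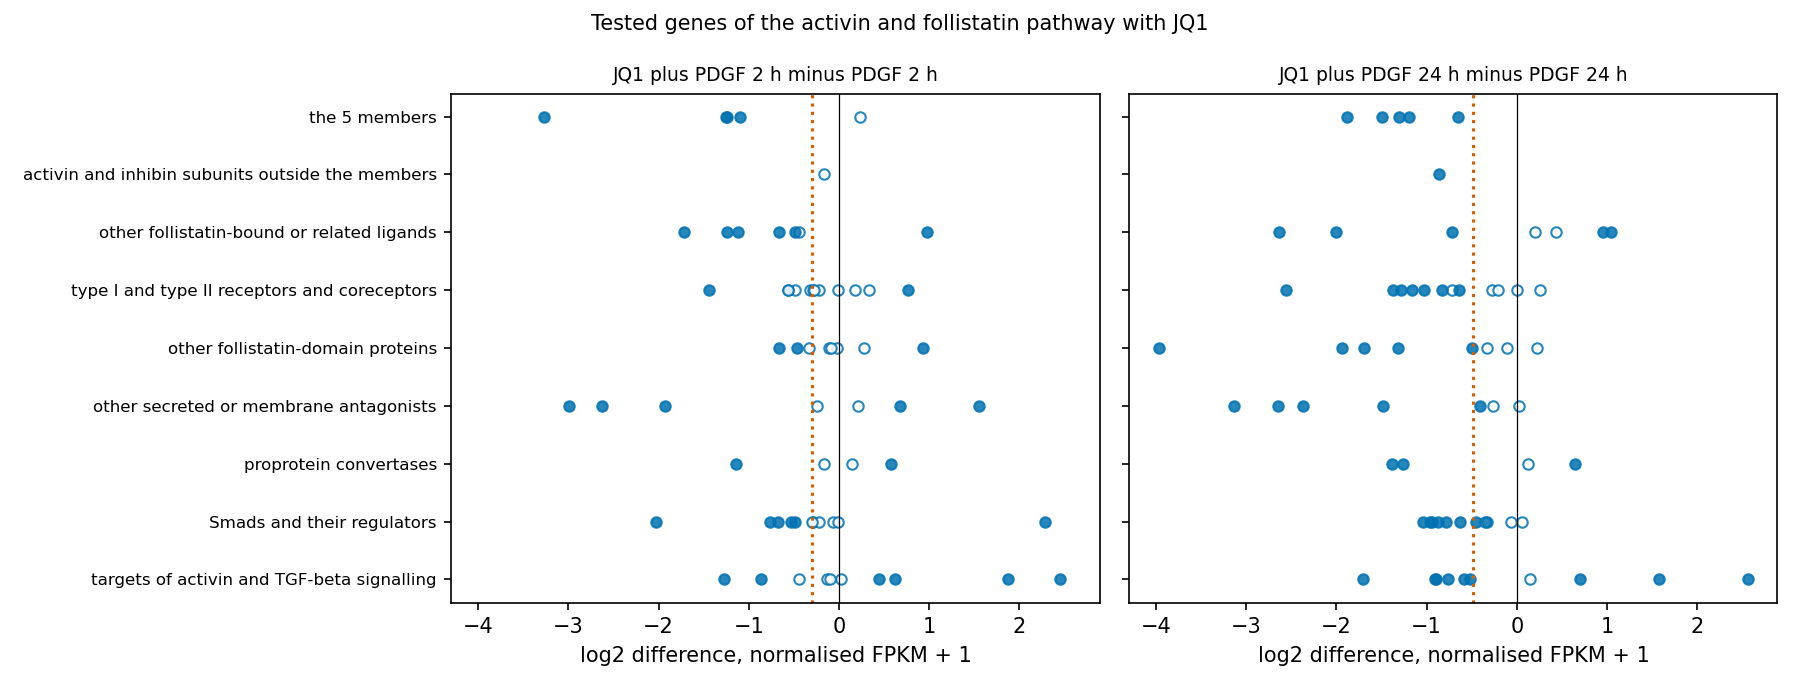
Log2 difference of JQ1 plus PDGF minus PDGF at 2 h and 24 h for each gene tested of the 8 pathway lists and for Fst, Fstl1, Fstl3, Inhba and Inhbb (top row). Filled points were called, open ones were not, and the dotted line is the median of all genes tested. Grem1 lies near Fst at 2 h, at -2.99 and -3.27, and Smoc2 is lowest at 24 h, at -3.97.

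Smooth muscle transcripts were measured in all groups, but at unlike levels. Myh11 averaged 0.383 normalised FPKM in JQ1 plus PDGF 24 h libraries, below the filter of 1, against 5.37 at 0 h. Cnn1 averaged 6.68 and 320 in the same groups. The 6 smooth muscle markers summed to 17800 to 18180 unnormalised FPKM in JQ1 plus PDGF 2 h libraries, against 11860 to 12570 with PDGF alone. At 24 h they summed to 425.5 to 496 with JQ1 plus PDGF, against 1387 to 1650 with PDGF alone, and to 11040 to 11430 at 0 h. Acta2 and Tagln, averaging 7779 and 8314, made up most of the sum in JQ1 plus PDGF 2 h libraries. On the normalised scale at 2 h, Tagln was called higher with JQ1 (log2 difference 0.48 ± 0.15) and Myh11 lower (-0.69 ± 0.23). Acta2, Cnn1, Myl9 and Smtn were not called. After median centring, Acta2 (0.43), Tagln (0.86) and Smtn (0.35) were called higher and Myh11 (-0.40) lower. At 24 h, each of the 6 was called lower with JQ1 on both scales. On the normalised scale the log2 differences ran from -1.07 ± 0.23 for Myh11 to -3.43 ± 0.16 for Acta2. In such bulk samples, fewer cells of a type and less RNA per cell cannot be told apart. The 5 endothelial markers summed to at most 1.67 FPKM in every library, with Cdh5 at an unnormalised 0 throughout. The 5 adventitial fibroblast markers summed to 6.10 to 8.44 in JQ1 plus PDGF 24 h libraries, against 95.7 to 115 with PDGF alone, most of it Lum, while Dcn averaged at most 0.133 normalised FPKM in these groups and Dpt was at 0 in all libraries. With JQ1 at 24 h, Lum (-4.50 ± 0.12), Pdgfra (-3.43 ± 0.20) and Pi16 (-0.97 ± 0.28) were called lower, Pi16 not after median centring. At 2 h the fibroblast markers summed to 90.2 to 108 with JQ1 plus PDGF, against 102 to 115.5 with PDGF alone. The 5 leukocyte markers summed to 9.53 to 17.1 in JQ1 plus PDGF 24 h libraries, against 36.9 to 52.9 with PDGF alone, and at 2 h to 6.54 to 11.2, against 17.7 to 22.6. The tested leukocyte markers went opposite ways at 24 h: Cd14 averaged 4.20 normalised FPKM in JQ1 plus PDGF libraries, against 57.9 with PDGF alone (-3.49 ± 0.21, adjusted p = 2.89e-09), and Cd68 averaged 7.77, against 0.633 (2.33 ± 0.40, adjusted p = 0.000155). Ptprc was at 0 in all libraries. The part of these marker differences in the member results was not tested.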

How the data were processed

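The libraries were stranded polyadenylated RNA-seq with single reads of 40 bases, per the labels' protocols. The authors deposited unnormalised FPKM and normalised FPKM, made with HISAT and Cufflinks 2.0.0 on rn6 per the submitters' processing notes; the annotation and the normalisation are not given in the sources used here. Of 17404 features, 92 spike-ins were set aside. Genes at 1 normalised FPKM or more in at least 2 libraries (10133) entered 1 limma 3.58.1 model (R 4.3.3) over the 5 groups on log2(normalised FPKM + 1), with 9 residual degrees of freedom, eBayes with a trend, and Benjamini-Hochberg adjustment over all genes tested. Log2 differences are on that scale and understate changes of low genes, while folds are ratios of mean normalised FPKM. For median centring, each library's unnormalised FPKM were divided by a median-of-ratios size factor (1.015 to 1.024; 9980 genes tested). The members, lists and markers were chosen with earlier results of these data known. Named beside the members are up to 4 called genes of each list with the largest difference, the activin receptors, the subunits and Smad2, Smad3 and Smad4, in the comparisons described, and the 3 genes most correlated with each member. A gene that this rule names is not reported here. Motifs were counted in 33469 RefSeq promoters.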

Additional observations from a re-analysis of the deposited data

Results flagged for a closer look

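The difference that went with JQ1 was not the same at both times for a pair of the members. For Fst, the JQ1 difference at 24 h minus that at 2 h was 1.96 (log2): JQ1 plus PDGF minus PDGF was -1.31 at 24 h and -3.27 at 2 h. For Fstl1, it was -0.89: JQ1 plus PDGF minus PDGF was -0.65 at 24 h and 0.23 at 2 h. Both are the interaction term of the fit over all genes, in which 22.3% of genes were called. Since the members were chosen on these libraries, both are a description and no evidence beyond it.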

How the results depend on the processing

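Of 40 member results, 27 kept their side of the threshold in all 22 alternatives, though 3 of these, none of them called, changed sign, and 0 called values reversed; since the members were chosen on these values, this is no support. With no filter on low values, calls were lost for Fstl3 at PDGF 2 h minus 0 h (0.76), for Fstl1 (-0.54), Fstl3 (-0.83) and Inhbb (0.95) at PDGF 24 h minus 0 h, and for Fst at JQ1 plus PDGF 24 h minus 0 h (0.85). A filter of 5 also lost Inhbb (0.95) at PDGF 24 h minus 0 h. eBayes without trend lost Fstl3 at PDGF 2 h minus 0 h (0.76). Inhbb at JQ1 plus PDGF 24 h minus 0 h, not called, became called without trend (-0.93), with only the groups compared (-0.93), after median centring (-0.91) and with a pseudocount of 0.1 (-2.05). With only the groups compared, 1788 genes were called for PDGF 2 h minus 0 h, against 3078. Median centring lost Inhbb (0.57) at PDGF 24 h minus 0 h and Fstl1 (-0.15) with JQ1 at 24 h. It called Fstl1 with JQ1 at 2 h (0.59), and Fstl1 (0.46) and Inhbb (-0.65) for JQ1 plus PDGF 2 h minus 0 h. It called 2819 genes for PDGF 24 h minus 0 h, against 4314, and turned the pathway calls to 13 higher and 16 lower there, 12 and 25 for PDGF 24 h minus PDGF 2 h, with JQ1 to 22 and 13 at 2 h and 15 and 23 at 24 h, and to 7 higher for the change of the JQ1 difference, against 4. A pseudocount of 0.1 lost Inhbb (1.30) at PDGF 24 h minus 0 h, and one of 5 lost Fst (0.55) at JQ1 plus PDGF 24 h minus 0 h. Leaving out both libraries whose low values the normalisation raised most (PDGF 2 h replicate 1 and PDGF 24 h replicate 0), chosen after seeing the data, lost Fstl1 (-0.51) at PDGF 24 h minus 0 h, called Inhbb for JQ1 plus PDGF minus 0 h at 2 h (-0.68) and 24 h (-0.93), and gave 7 pathway genes higher for the change of the JQ1 difference. Leaving out each library in turn changed some calls: for PDGF 2 h minus 0 h, Fstl3 ran from 0.52 to 0.98, all genes called from 1606 to 3163 and pathway genes lower from 5 to 9. For PDGF 24 h minus 0 h, Fstl1 ran from -0.72 to -0.36, Fstl3 from -1.06 to -0.66, Inhbb from 0.75 to 1.13 and all genes called from 2487 to 4814. For PDGF 24 h minus PDGF 2 h, Fstl1 ran from -0.61 to -0.34 and Inhbb from 0.14 to 0.80. For JQ1 at 2 h, Fstl1 ran from 0.13 to 0.41, and for the change of the JQ1 difference Inhbb from -1.04 to -0.39. For JQ1 plus PDGF minus 0 h, Inhbb ran from -0.82 to -0.47 at 2 h and from -1.03 to -0.83 at 24 h, and Fst from 0.46 to 1.24 at 24 h. Without either unstimulated library the lone one was assumed to vary like the other groups. The cause of these moves was not tested. No paired analysis was possible because the columns end in digits that are not tied to the letters of the sample titles. Depth is unknown, which limits Inhbb, near 1 FPKM, most.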
